A study of Neurospora crassa with 19 samples.

Results

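Neurospora crassa is the orange bread mould, a filamentous fungus whose colour comes from neurosporaxanthin, a carotenoid acid. The genes described here are 5 that code for the enzymes that make geranylgeranyl diphosphate and lead from it to that pigment: al-3 (NCU01427), al-2 (NCU00585), al-1 (NCU00552), cao-2 (NCU11424) and ylo-1 (NCU04013). They were chosen by locus number, in pathway order, out of 9730 genes counted. No measured value entered that rule, though earlier results of these data were known when it was made. All 5 had their locus and symbol paired in the gene table used, and all 5 were detected, that is, had at least 10 counts in both libraries.

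The series studied dim-1 (NCU06484), described in its title as a chromatin remodeler that prevents aberrant DNA methylation. Of its 19 samples, 2 are poly-A RNA libraries, replicate 2 and replicate 1 of strain N5801, which the labels give as a complete dim-1 deletion and which is a single strain. Both came from cultures shaken for 16 h at 32 °C in Vogel's minimal medium with 1.5% sucrose, and the labels call the tissue germinated conidia while the protocol harvests mycelia. The labels state neither the light conditions nor whether separate cultures were used, so a difference between these libraries may be technical. The exact binomial p-values below set such a difference against counting error only and hold no estimate of the spread between cultures. The other 17 samples (nuclease-digested nuclei, bisulfite, chromatin immunoprecipitation and whole-genome libraries) and a wild-type RNA reference were not analysed here, so nothing below says whether a gene was higher or lower than in wild type.

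In the pathway, AL-3 makes geranylgeranyl diphosphate, AL-2 joins such units into phytoene and later closes the end ring, and AL-1 introduces the double bonds that give colour. CAO-2 then cleaves torulene to an apocarotenal, and YLO-1 oxidises that aldehyde to neurosporaxanthin. The al genes are named after albino mutants, and ylo-1 after yellow ones. In mycelium the pathway is known for its response to blue light through the white collar photoreceptor complex, and conidia, the asexual spores, are strongly pigmented.

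Gene counts totalled 13632746 in replicate 2 and 17364963 in replicate 1. A count of 0 allows a level of up to 0.220 CPM (counts-per-million over all gene rows) in replicate 2 and 0.173 CPM in replicate 1. The targeted gene, dim-1, had 171 counts in replicate 2 and 258 in replicate 1, so the libraries labelled as its deletion were not free of its reads. Gene-level counts leave unknown where in the gene those reads lie, and check the label only in part. Between the libraries, the coefficient of variation beyond counting error was 23.9% over genes (edgeR common dispersion).

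The desaturase transcript al-1 dominated the pathway, al-2, ylo-1 and al-3 formed a middle group, and the cleavage oxygenase transcript cao-2 was lowest. Levels of different genes were compared as CPM per kilobase of gene span, the length from gene start to gene end. On that scale the median of the 7775 detected genes was 13.01, and all 5 pathway genes had a mean above it. The order al-1, al-2, ylo-1, al-3, cao-2 was the same in both libraries. The plot of levels by gene shows the same order.

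**Figure D1:**
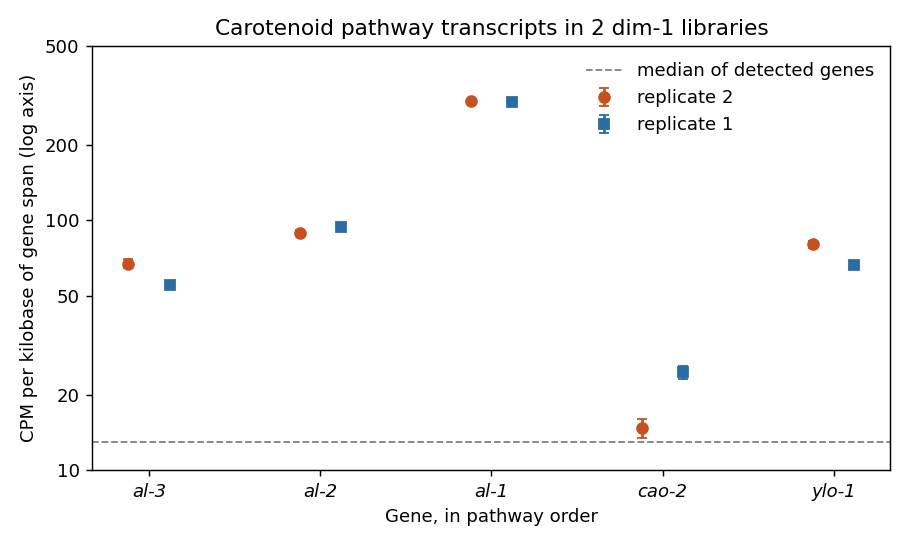
Level of each carotenoid pathway gene as CPM per kilobase of gene span (log axis), in pathway order, in replicate 2 (circles) and replicate 1 (squares) of the strain labelled dim-1 deletion. Bars are exact Poisson 95% intervals and the dashed line is the median of detected genes (13.01). al-1 lies near 300.0 in both libraries and cao-2 is lowest in both.

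For the supply of the precursor, al-3, the geranylgeranyl diphosphate synthase gene, had 2529 counts in replicate 2 and 2650 in replicate 1. These are 186 CPM in replicate 2 (exact Poisson 95% interval 178 to 193) and 153 CPM in replicate 1 (147 to 159), with a mean of 169 ± 23.3 CPM (SD, n = 2). Replicate 2 was the higher library and the intervals did not overlap. Per kilobase of span the mean was 61.3 ± 8.43, with 1158 detected genes above it.

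The bifunctional synthase and cyclase gene al-2 had 4057 counts in replicate 2 and 5473 in replicate 1. Its level was 298 CPM in replicate 2 (289 to 307) and 315 CPM in replicate 1 (307 to 324), or 306 ± 12.4 CPM on average. The libraries were within a few percent of each other. Per kilobase al-2 had a mean of 91.7 ± 3.72, above al-3 in each library, and 769 detected genes stood higher.

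The phytoene dehydrogenase gene al-1 was the most abundant of the pathway and had the lowest coefficient of variation of plain CPM, while after TMM scaling al-2 was the more even gene. It had 10437 counts in replicate 2 and 13158 in replicate 1, or 766 CPM (751 to 780) and 758 CPM (745 to 771) in those libraries, and its coefficient of variation between them was 0.729%, against 4.06% for al-2. Per kilobase its mean was 300.0 ± 2.19, at percentile 96.5 of detected genes, with 273 genes above it.

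The torulene oxygenase gene cao-2 was the least abundant and the least even. It had 492 counts in replicate 2 and 1051 in replicate 1, which is 36.1 CPM in replicate 2 (33.0 to 39.4) and 60.5 CPM in replicate 1 (56.9 to 64.3). The mean was 48.3 ± 17.3 CPM, a coefficient of variation of 35.8%. Per kilobase cao-2 had 14.7 in replicate 2 and 24.7 in replicate 1, at percentiles 54.7 and 67.5 of detected genes in those libraries. Its level in replicate 2 was thus just above the median detected gene.

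The aldehyde dehydrogenase gene ylo-1, which completes the pathway, had 3433 counts in replicate 2 and 3615 in replicate 1. Its level was 252 CPM in replicate 2 (243 to 260) and 208 CPM in replicate 1 (201 to 215), with a mean of 230.0 ± 30.9 CPM. Replicate 2 was the higher library, as for al-3. Per kilobase ylo-1 had 80.2 in replicate 2 and 66.3 in replicate 1.

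In the order of levels per kilobase, ylo-1 and al-3 were the only neighbours whose ranges over the 2 libraries overlapped, since al-3 had 67.2 in replicate 2 and 55.3 in replicate 1. Of the 10 pairs of pathway genes, the other 9 did not overlap. With n = 2 this describes the libraries and is no test.

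Expressed as a chain, each step of the pathway had its own transcript ratio. al-2 exceeded al-3 by 1.33-fold per kilobase in replicate 2 (exact binomial 95% interval 1.26 to 1.39) and 1.71-fold in replicate 1 (1.63 to 1.79). al-1 exceeded al-2 by 3.38-fold in replicate 2 (3.26 to 3.51) and 3.16-fold in replicate 1 (3.06 to 3.26). The drop to the cleavage step was the steepest, with al-1 20.5-fold above cao-2 in replicate 2 (18.7 to 22.4) and 12.1-fold in replicate 1 (11.3 to 12.9). ylo-1 was again above cao-2, by 5.44-fold in replicate 2 (4.95 to 5.99) and 2.68-fold in replicate 1 (2.50 to 2.88). These intervals cover counting error only.

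The ratios that involve cao-2 differed most between the libraries, an observation made after the values were seen. In the 4 pairs with cao-2 the ratio changed by 1.58-fold to 2.04-fold from one library to the other. All 4 rest on the same cao-2 counts, so they are not separate observations. In the 6 pairs without it the change was at most 1.29-fold. The ratio of ylo-1 to al-3 was 1.19 in replicate 2 and 1.20 in replicate 1, and it was one of 2 pairs, with al-1 to al-2, whose counting intervals overlapped between the libraries.

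Summed over the pathway, the libraries were close. The 5 genes together had 1537 CPM in replicate 2 and 1494 CPM in replicate 1 (mean 1515 ± 30.0, n = 2), or 0.154% and 0.149% of the gene counts of those libraries. al-1 alone gave 49.8% of the pathway's reads in replicate 2 (exact binomial 95% interval 49.1 to 50.5) and 50.7% in replicate 1 (50.1 to 51.3). cao-2 gave 2.35% in replicate 2 (2.15 to 2.56) and 4.05% in replicate 1 (3.81 to 4.30). The other three genes shifted by smaller factors: ylo-1 held 16.4% of the reads in replicate 2 and 13.9% in replicate 1, al-2 19.4% and 21.1% in those libraries, and al-3 12.1% and 10.2%.

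**Figure D2:**
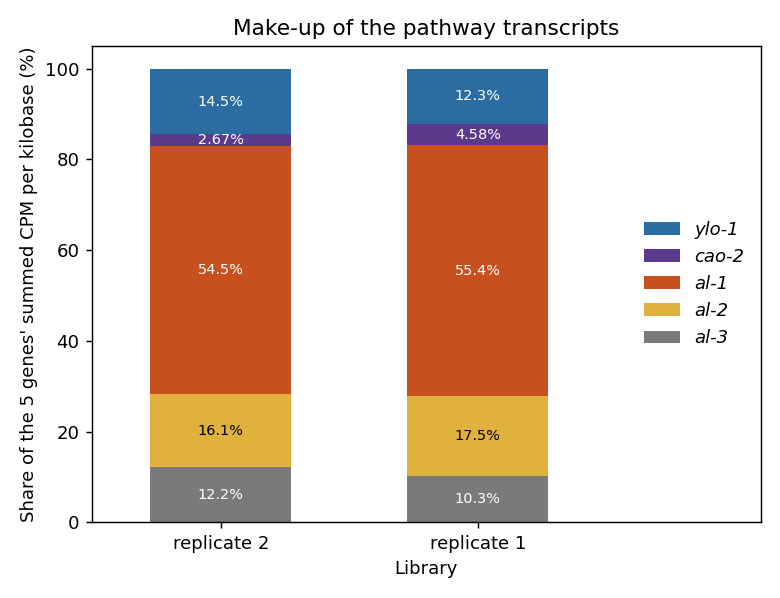
Share of each gene in the summed CPM per kilobase of the 5 pathway genes, in replicate 2 (left) and replicate 1 (right); each bar adds to 100%. al-1 takes 54.5% in replicate 2 and 55.4% in replicate 1, and cao-2 2.67% and 4.58% in those libraries.

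Whether a gene differed between the libraries was asked with a two-sided exact binomial test on reads, fitted on all 7898 genes with at least 20 counts over both libraries and adjusted by the Benjamini-Hochberg method over all of them. The log2 ratio is replicate 2 over replicate 1 after TMM scaling. It compares these 2 libraries and not conditions, and it takes reads as independent. With an adjusted p under 0.05 at any fold, 4 of 5 pathway genes passed, 3 higher and 1 lower in replicate 2. Of all genes tested, 57.3% passed that rule, so the share of pathway genes says little about the pathway. When a difference of 2-fold or more was also required, 0 of the 5 were called, against 6.15% of all genes tested.

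By this test cao-2 was lower in replicate 2, with a log2 ratio of −0.69 (exact 95% interval −0.85 to −0.53; 1.61-fold) and an adjusted binomial p of 2.20e-18. al-3 was higher in replicate 2, with a log2 ratio of 0.34 (0.26 to 0.42; exact binomial adjusted p = 2.72e-16). ylo-1 was higher there by nearly the same amount, 0.33 (0.26 to 0.40; exact binomial adjusted p = 6.11e-21). The median absolute log2 ratio over all genes tested was 0.29, so al-3 and ylo-1 moved about as much as a typical gene, at percentiles 56.4 and 55.5 of absolute ratio, and cao-2 more, at percentile 84.8.

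The other two were close to unity. al-1 had a log2 ratio of 0.07 (0.03 to 0.11; exact binomial adjusted p = 4.50e-04), which was 0.01 with plain library-size scaling, where the adjusted p was 0.524. al-2 had −0.03 (−0.09 to 0.03; exact binomial adjusted p = 0.465), and with plain library-size scaling −0.08 with an adjusted p of 0.0114. Their absolute ratios stood at percentiles 13.9 and 5.22 of all genes tested. Over the pathway the median log2 ratio was 0.07, against 0.00 over all genes tested.

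A test that allows for spread between replicates gave no call among the pathway genes. edgeR's exact test, whose single dispersion was estimated with both libraries taken as replicates, passed 0 of the 5 genes at an adjusted p under 0.05 and 0 at an unadjusted p under 0.05. It called 51 of all genes (0.646%), all of them among the 486 called by the binomial test with the 2-fold minimum. Its dispersion came from the same 2 libraries that it compared, so the difference under test was counted as noise. Only genes that differed far more than most could pass, so the 0 of 5 does not show that these genes were alike.

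**Figure D3:**
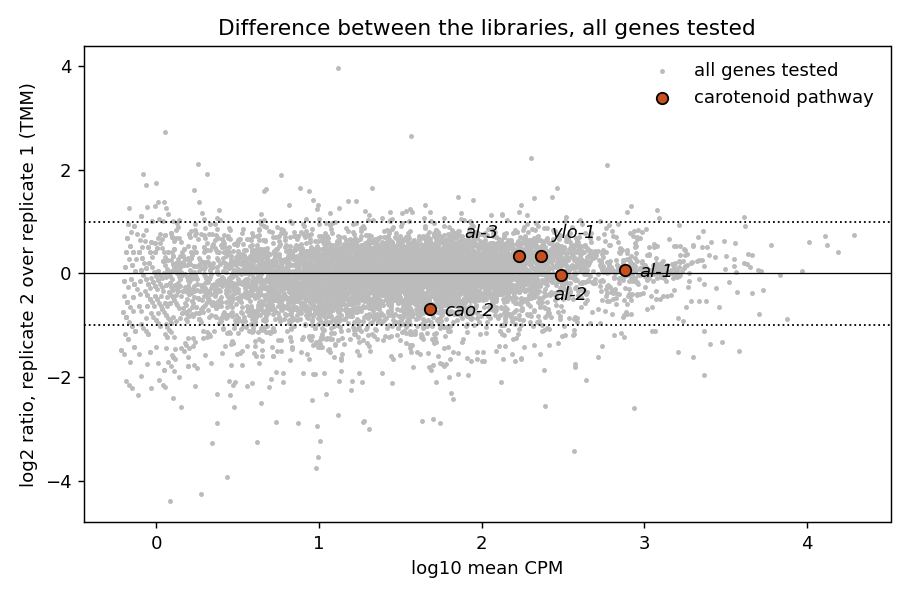
Log2 ratio of replicate 2 over replicate 1 (TMM-scaled) against log10 mean CPM for all 7898 genes tested (grey) and the carotenoid pathway genes (orange). Dotted lines mark 2-fold; all 5 pathway genes lie between them, with cao-2 lowest at −0.69.

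The pathway genes lie apart in the genome, on 4 linkage groups in the RefSeq gene table of assembly NC12: al-2 and al-1 on I, al-3 on V, ylo-1 on VI and cao-2 on VII. Because the sources used here do not give the build of the counts, positions are left out, and only names, spans and gene order were taken from the table. al-2 and al-1 are separated by 35 counted genes, and 2 genes lie between al-2 and cry (NCU00582), a cryptochrome photoreceptor gene named after its place was seen. cao-2 is counted gene number 2 from the start of the list for linkage group VII, which holds 1047 counted genes.

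Each pathway gene stood above both of its neighbours in mean CPM per kilobase. For al-1 the neighbours had even levels, 44.3 in replicate 2 and 45.5 in replicate 1 for NCU00553, and 18.4 and 18.9 in those libraries for myo2 (NCU00551). al-1 was 6.68-fold above the first and 16.1-fold above the other. Of the 35 genes between al-2 and al-1, a stretch looked at after the values were seen, 33 were detected. They ranged from 0.123 to 228 with a median of 24.2, and 0 of them reached al-1 while 5 exceeded al-2.

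Beside al-2, the cell wall protein gene ncw-6 (NCU00586) had 46.8 CPM per kilobase in replicate 2 and 24.8 in replicate 1, a log2 ratio of 0.98 (exact binomial adjusted p = 2.98e-63), whereas al-2 itself did not pass. On the other side NCU00584 had 57.0 in replicate 2 and 45.3 in replicate 1. The difference between al-2 and either neighbour was not tested.

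Beside al-3, NCU01426 had 38.6 CPM per kilobase in replicate 2 and 59.5 in replicate 1, so that it was the lower gene in replicate 2 and the higher one in replicate 1. Its log2 ratio was −0.57, opposite in sign to that of al-3. The spans of NCU01426 and al-3 overlap in the gene table, and the strand setting of the counting is not given in the sources used here, so reads in the shared stretch cannot be assigned with certainty. The next gene on the other side, NCU06636, had 5.59 in replicate 2 and 4.07 in replicate 1.

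cao-2 stood out from a weakly expressed neighbourhood. NCU09306 had 3.27 CPM per kilobase in replicate 2 and 1.87 in replicate 1, and NCU09305 had 0.857 in replicate 2 and 1.13 in replicate 1, so that cao-2 was 7.68-fold and 19.8-fold above them. Among the first 10 genes of linkage group VII, a stretch chosen after the values were seen, the 9 others were all detected, with a median of 3.35. Of these only nuo14, at 95.2, exceeded cao-2.

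ylo-1 stood next to a nearly silent gene on one side. NCU04012 had 3 counts in replicate 2 and 0 in replicate 1, at or under the limit that a count of 0 allows. NCU04014 on the other side had 6.10 CPM per kilobase in replicate 2 and 6.55 in replicate 1, and ylo-1 was 11.6-fold above it.

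**Figure D4:**
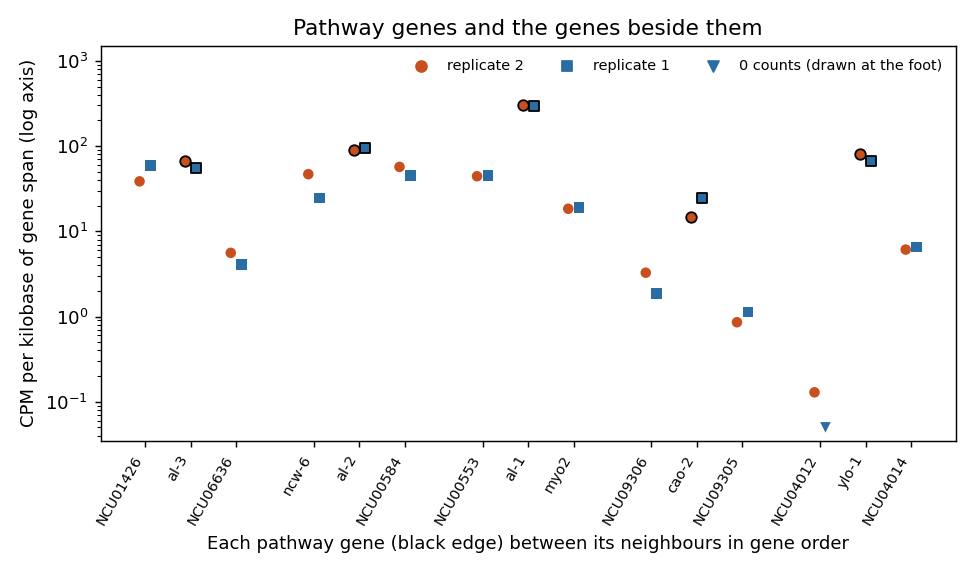
CPM per kilobase of gene span (log axis) of each pathway gene (black edge) and of the counted genes before and after it in gene order, in replicate 2 (circles) and replicate 1 (squares); a triangle marks 0 counts. In means each pathway gene lies above both neighbours, for example by 1.25-fold for al-3 over NCU01426 and 19.8-fold for cao-2 over NCU09305. In replicate 1 alone NCU01426 lies above al-3. The widest gap is that of ylo-1 over NCU04012, which had 3 counts in replicate 2 and 0 in replicate 1.

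The matched genes of isoprenoid and sterol synthesis had means per kilobase below al-1 and above cao-2, with no test of the difference. The list held 4 genes. It took every symbol in the gene table that starts with erg-, which gave the ergosterol genes erg-1, erg-3 and erg-4. Of the other symbols sought by name, only fpp (NCU01175) was in the table, for the farnesyl diphosphate synthase that supplies the substrate of AL-3. By the mean over both libraries fpp was highest, with 180 CPM per kilobase in replicate 2 and 133 in replicate 1. Next by mean was erg-1 (NCU04156), with 157 and 91.6 in those libraries. erg-4 (NCU03006) had 78.9 in replicate 2 and 61.1 in replicate 1, and erg-3 (NCU08762) had 81.3 and 139.6 in those libraries. In replicate 1 alone erg-3 was thus the highest of the list. All 4 passed the exact binomial test at an adjusted p under 0.05, 3 higher and 1 lower in replicate 2, and 0 were called at 2-fold. Over all genes tested 57.3% passed at any fold and 6.15% were called at 2-fold. The list's median was 117 CPM per kilobase, between al-1 and al-2.

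Light input and light-responsive genes, taken as 1 list, spanned a wide range around the pathway. Of 15 symbols, 14 were in the table and detected, with a median of 19.5 CPM per kilobase. The clock-controlled gene ccg-1 (NCU03753) averaged 486 ± 382 and the blue-light photoreceptor gene vvd (NCU03967), which damps light responses, 387 ± 27.7 (SD, n = 2 each). vvd was above al-1 in both libraries, but ccg-1 only in replicate 1, with 216 in replicate 2 and 756 in replicate 1. The photoreceptor genes of the white collar complex, wc-1 (NCU02356) and wc-2 (NCU00902), averaged 19.6 ± 2.57 and 15.0 ± 0.433, near cao-2. The lowest were the phytochrome gene phy-2 (NCU05790) at 0.751 ± 0.600 and the opsin gene nop-1 (NCU10055) at 0.759 ± 0.574. At an adjusted binomial p under 0.05, 2 of the 14 were higher and 8 lower in replicate 2, against 29.1% and 28.2% of all genes tested. At 2-fold 0 were called higher and 4 lower, against 1.11% and 5.04% of all genes. Those 4 were ccg-1, phy-2, nop-1 and the conidiation gene con-10 (NCU07325), the last named after its values were seen.

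A relative of cao-2 was detected at a low level. cao-1 (NCU07008), whose product is a carotenoid oxygenase family enzyme that cleaves stilbenes, had 52 counts in replicate 2 and 112 in replicate 1, or 2.45 ± 0.889 CPM per kilobase. Like cao-2 it was lower in replicate 2 (log2 ratio −0.69, exact binomial adjusted p = 0.00713). Opsins carry retinal, a carotenoid product, and nop-1 had 10 counts in replicate 2 and 42 in replicate 1.

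Genes of conidium formation, the other stage at which this pigment accumulates, were lower in sum in replicate 2. The 11 genes of that list summed to 531 CPM in replicate 2 and 768 CPM in replicate 1, and among the 10 tested 1 was higher and 7 were lower in replicate 2 at an adjusted binomial p under 0.05, against 29.1% and 28.2% of all genes tested. At 2-fold 0 were called higher and 2 lower, con-8 and con-10, against 1.11% and 5.04% of all genes. The 1 higher gene was eas (NCU08457), with 76.0 CPM in replicate 2 and 53.6 CPM in replicate 1. Its log2 ratio was 0.56 (exact binomial adjusted p = 5.68e-17). con-6 (NCU08769) also had a positive log2 ratio, 0.81, but did not pass (exact binomial adjusted p = 0.0961). Both genes were singled out with their levels already known. The conidial separation gene csp-1 (NCU02713) led with 113 ± 25.3 CPM per kilobase, followed by con-8 (NCU09235) with 62.5 ± 32.1. Both csp-1 and con-10 were also on the light list and passed as lower in replicate 2. The counts of lower genes in the light and conidium lists therefore share these genes and are not independent. The conidiation gene con-13 (NCU07324) had 0 counts in replicate 2 and 2 in replicate 1, and the regulator gene acon-3 (NCU07617) 11 and 21 in those libraries. By the exact binomial test cao-2 was lower in the same library, while al-3, ylo-1 and al-1 were higher there and al-2 did not pass. The part of conidium formation in these differences was not tested. In bulk RNA, fewer cells of a type and less RNA per cell cannot be told apart.

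Genes of sexual development, used here as markers of another stage, were low apart from asd-1 (NCU05598). Of 9 genes, 5 were detected, and the list summed to 119 CPM in replicate 2 and 157 CPM in replicate 1. Most of that sum was asd-1, at 44.8 ± 8.83 CPM per kilobase and percentile 80.3 of detected genes on that scale. The pheromone precursor gene mfa-1 (NCU16992) was next at 9.80 ± 2.42. No read fell on fmf-1 (NCU09387), with 0 counts in each library, while sad-1 (NCU02178), of meiotic silencing, had 2 in replicate 2 and 3 in replicate 1. At an adjusted binomial p under 0.05, 0 of the 6 tested were higher and 3 were lower in replicate 2, against 29.1% and 28.2% of all genes tested.

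**Figure D5:**
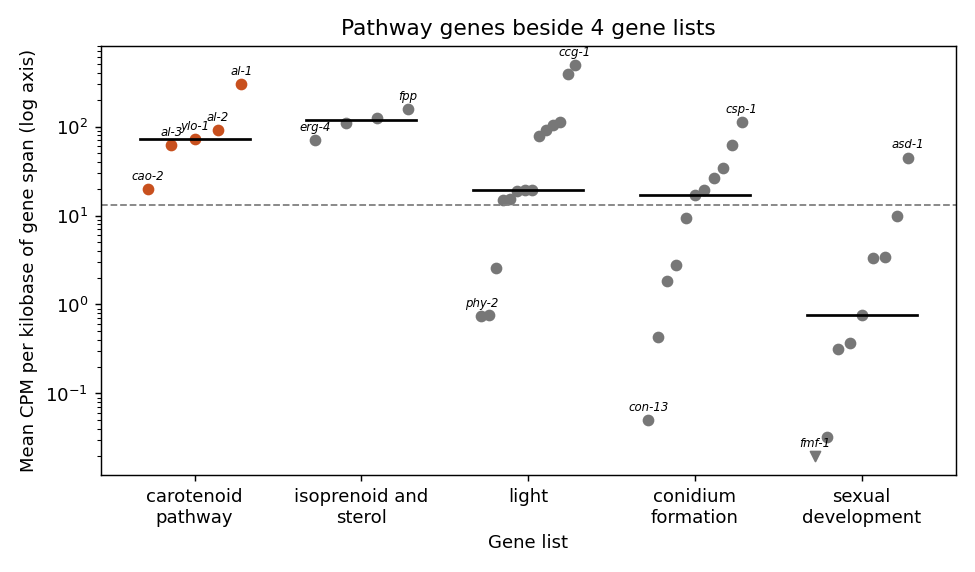
Mean CPM per kilobase of gene span over the 2 libraries (log axis) for the carotenoid pathway genes (orange) and 4 gene lists (grey), 1 point per gene, sorted within a list, with the highest and lowest gene of each list named. Black bars are list medians, 73.2 for the pathway and 19.5 for the light list; the dashed line is the median of detected genes, and a triangle marks a gene with 0 counts.

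The genes closest to each pathway gene in both libraries were named by the distance in log2(CPM + 1) over the 2 libraries, among genes with a symbol. For al-3 these were pca-3 (NCU05942; distance 0.0380) and the respiratory complex I gene nuo11.5 (NCU01360; 0.0610). For ylo-1 they were nuo18.4 (NCU00484; 0.0232), also of complex I, and fox-2 (NCU08828; 0.0282), of fatty acid oxidation. al-2 was closest to the chitin synthase gene chs-1 (NCU03611; 0.0476) and gua-3 (NCU02325; 0.0730). al-1 was closest to un-16 (NCU01949; 0.0653) and the autophagy gene atg-8 (NCU01545; 0.144). cao-2 was closest to mus-21 (NCU00274; 0.0245), a DNA damage kinase gene, and clr-1 (NCU07705; 0.118), a regulator of cellulose use. Over 2 libraries such closeness says only that level and ratio were alike.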

How the data were processed

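Poly-A RNA of strain N5801 was measured in 2 libraries, and the authors deposited raw counts of reads per gene, without normalization, for each library. TopHat, Bowtie2, SAMtools and HTSeq are among the tools named, without version or role, per the submitters' processing notes, and the libraries came from a stranded kit per the labels' protocols. Rows for reads without a gene (no feature, 6.64% in replicate 2 and 6.72% in replicate 1; several places, 2.48% and 3.41%; ambiguous, 0.0771% and 0.0728%) did not enter library sizes or tests. Pearson's r of log2(CPM + 1) across genes, which are not independent replicates, was 0.988, and a chi-square of 97.8 per degree of freedom showed more than sampling noise between the libraries, which were kept as 2 samples.

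CPM used all gene rows. Gene spans came from the RefSeq table, which held 9729 of 9730 loci, 1118 with a symbol. With 1 group, no quasi-likelihood test could be fitted across genes. The exact binomial test set replicate 2 reads against the TMM-scaled share, with 0.5 counts added in log2 ratios. Its check on simulated data set a pass mark only for counts with counting error alone, a smaller spread than these libraries had. Tools were edgeR 4.0.16 and DESeq2 1.42.0 (size factors) in R 4.3.3, and scipy 1.17.1 in Python 3.11.15. Intervals and floors (3 counts of the library) cover counting error only.

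The pathway genes and the lists were chosen with earlier results of these data known. Named genes are the pathway genes, dim-1, the nearest counted gene on each side, the highest and lowest 2 of each list per kilobase, wc-1, wc-2, vvd, cao-1, and 2 closest genes each; others are marked as named after their values were seen.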

Additional observations from a re-analysis of the deposited data

How the results depend on the processing

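Leaving out a replicate leaves the other library alone, so it repeats the values per library and is no separate check. The order of the 5 genes per kilobase was the same in each. The median level of the pathway was 252 CPM in replicate 2 alone and 208 CPM in replicate 1 alone. With TMM-scaled CPM its mean over both stayed within 1 SD. Its median percentile, 90.4 among detected genes, was 92.3 among all genes and 87.6 per kilobase of span. The 486 genes called between the libraries became 4527 without the 2-fold minimum. Also without a fold minimum, edgeR's exact test called 51 in place of those 4527, and the 4 pathway genes with an adjusted p under 0.05 became 0 with edgeR's exact test. No log2 ratio of a pathway gene changed sign under library-size scaling, DESeq2 size factors, other count minimums (1 and 100), no added counts or edgeR. The correction by coding length and the search of promoters for motifs were not run, because no protein or promoter sequences were used here. No paired analysis was possible because RNA counts exist here for a single group. The fewest counts behind any pathway value were the 492 of cao-2 in replicate 2.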
